A study of Saccharomyces cerevisiae with 42 samples.

Results

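The step from 2 h to 4 h of a growth time course of budding yeast was examined over all genes, with the 6 libraries labelled 4 h set against the 6 labelled 2 h, so 12 of the 42 RNA-seq libraries of the series entered. All came from the Saccharomyces cerevisiae strain BY4742, which is haploid, of mating type alpha and deleted at HIS3, LEU2, LYS2 and URA3, grown at 30 °C without any other treatment in YPD, a rich glucose medium. Cultures were diluted from a preculture and allowed to start growing again before the 0 h samples were taken, and the 4 h and 2 h samples were taken that many hours later. The 6 libraries of a time point are labelled as biological repeats, and the 30 remaining libraries, 6 at 6 h and 24 at 0 h, were used only where the neighbouring steps are described. In the series the time course asks how RNA levels, and the splicing of genes with introns, follow growth on glucose.

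Budding yeast ferments glucose first and, while glucose is plentiful, keeps genes for respiration, for other carbon sources and for high-affinity glucose uptake at a low level, partly through the repressor Mig1. As glucose falls, those genes are derepressed, the stress activators Msn2 and Msn4 raise genes that carry the stress response element, and cells lay down glycogen and trehalose as reserve carbohydrates. Genes for making ribosomes follow growth rate and are lowered when growth slows. De novo purine synthesis, driven by the factors Bas1 and Pho2, draws its one-carbon units from glycine and serine.

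The libraries held 6404650 to 22601624 gene counts at 4 h (median 10758197.5) and 4339150 to 16139124 at 2 h (median 11329860.5). Levels below are scaled counts, that is, counts brought to a common library size of 13900104 (the average in the series), and say how large a share of a library a gene took. In such bulk samples fewer cells of a kind and less RNA per cell cannot be told apart. The 4 alpha-cell markers (MF(ALPHA)1, MF(ALPHA)2, STE3 and SAG1) summed to 46158 to 62506 scaled counts at 4 h and 44079 to 54041 at 2 h, and the 4 a-cell markers (MFA1, MFA2, STE2 and BAR1) to 166 to 313 at 4 h and 163 to 420 at 2 h. LEU2, LYS2 and URA3 were at 0 in all 12 libraries, whereas HIS3, whose deletion in this strain background leaves part of the gene, kept 783 to 1489 scaled counts at 4 h and 490 to 1554 at 2 h.

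Libraries stood apart at both times. Replicate 1 at 2 h had a slope of log2 level on log2 gene length of 0.0258, against 0.494 to 0.583 in the libraries at 4 h and 0.440 to 0.577 in the other libraries at 2 h, so short genes took more of that library. Replicate 3 at 4 h had the lowest level of the 4 h libraries in 74 of the 120 genes that were higher at 4 h. In 44 of the 120 it did not exceed the highest 2 h library. Replicate 4 at 2 h was the highest 2 h library in 71 of those 120 genes. Replicate 1 at 4 h lay at the other end from replicate 3, as the highest 4 h library in 87 of the 120. It was also the lowest 4 h library in 21 of the 33 genes that were lower at 4 h. These counts are over genes called in these same libraries, and shares over all genes were not computed. Replicate 3 at 4 h and replicate 4 at 2 h carry the same number, 1, in the submitters' file names, and whether that marks a shared culture or batch is not given in the sources used here. The part of these libraries in the results was not tested beyond the values given with them and without them.

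From 2 h to 4 h, 120 of the 5426 genes tested rose and 33 fell (edgeR's quasi-likelihood test, Benjamini-Hochberg adjusted p under 0.05), which is 2.21% and 0.608% of the genes and 2.82% in all. The rises were larger than the falls. Among the genes that rose, 60 changed more than 2-fold and 21 more than 4-fold, with a median log2 change of 1.00, whereas among the genes that fell 1 changed more than 2-fold and the median was -0.67. The median over all genes tested was 0.00. The 2 groups of libraries did not overlap in 83 genes that were higher at 4 h (1.53%) and 37 that were lower (0.682%), and 51 and 15 of these also passed the test.

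These counts depended on single libraries. Without replicate 3 at 4 h the test called 364 genes higher and 353 lower, and without replicate 1 at 2 h it called 234 and 116. The other omissions at 4 h gave 32 and 11 without replicate 1, 69 and 15 without replicate 2, 28 and 6 without replicate 4, 54 and 19 without replicate 5, and 113 and 23 without replicate 6. At 2 h they gave 22 and 4 without replicate 2, 27 and 7 without replicate 3, 129 and 45 without replicate 4, 42 and 12 without replicate 5, and 27 and 11 without replicate 6. With both replicate 3 at 4 h and replicate 1 at 2 h left out, a setting chosen after the data were seen, 702 genes were higher and 707 lower, including all 120 and all 33 of the genes called with 12 libraries. In each of the 12 omissions 21 genes stayed higher and 4 stayed lower. The 21 were GCV1, GCV2, SHM2, MTD1, ADE2, ADE12, ADE17, HXK1, HXT7, TDH1, GPH1, GLC3, HSP26, SSU1, ISR1, ESC8, COA2, ZTA1, CEM1, DIA4 and YFR052C-A, and the 4 were CIT2, DLD3, SOK2 and TIP1. YFR052C-A (chrVI:253429-253734) overlaps the end of HXK1 (chrVI:253592-255049) on the same strand, so these 2 may not be separate signals. The 2 h mean of YFR052C-A, 62.8 scaled counts, was below the minimum mean set for testing. YFR052C-A was therefore tested only through its 4 h libraries.

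**Figure D1:**
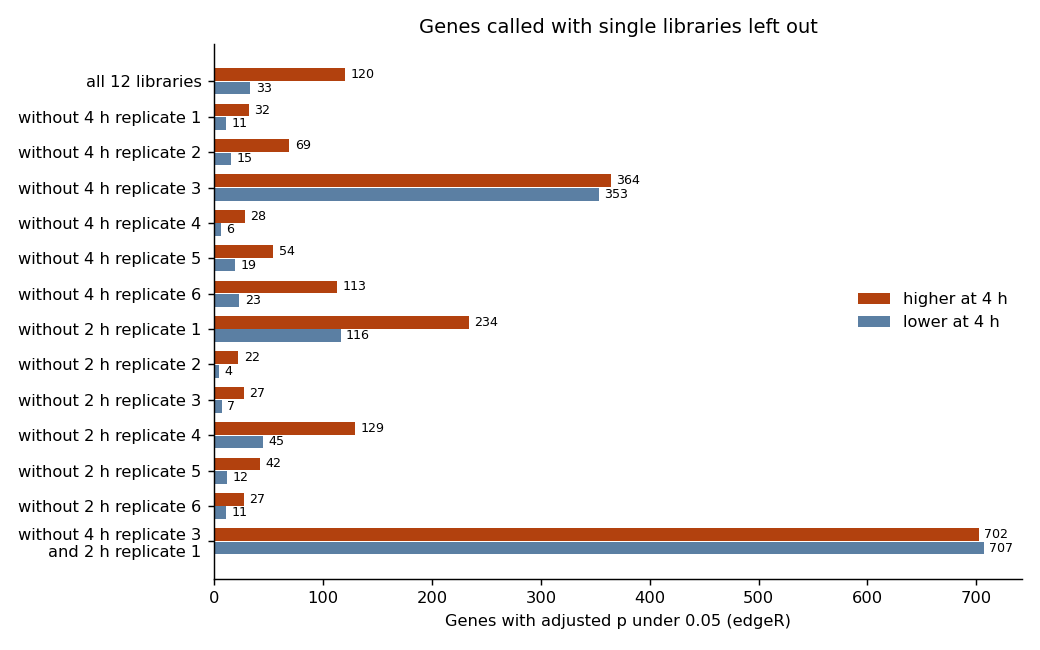
Genes called at 4 h against 2 h (edgeR, adjusted p under 0.05), with rises in orange and falls in blue, for all 12 libraries, with each library left out in turn, and with a pair left out. Over the single omissions the counts range from 22 to 364 higher and from 4 to 353 lower, and both are highest without replicate 3 at 4 h.

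Genes of glycogen synthesis and breakdown held the 2 largest rises, those of GSY1 and GLC3. Of 11 glycogen genes tested 6 rose and 0 fell, with a median log2 change of 1.56 over the list, and all 11 had a log2 change above 0. GSY1, one of the pair of glycogen synthase genes, had 263, 4263 and 15496 scaled counts at 4 h (lowest, median and highest library), against 222, 273 and 645 at 2 h. Its log2 change was 4.20 ± 0.78 (SE; edgeR, Benjamini-Hochberg adjusted p = 0.0171), and 5 of the 6 libraries at 4 h lay above every library at 2 h. The exception was replicate 3, with 263 scaled counts, inside the range of the 2 h libraries. GSY2, which encodes the other and main glycogen synthase, had 1119.9, 3013 and 11062 at 4 h and 555, 715 and 1166 at 2 h (log2 change 2.71 ± 0.49).

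The other glycogen genes that rose act on either side of the synthases. GLC3, the branching enzyme, had 211, 1480.3 and 4929 scaled counts at 4 h and 98.8, 107 and 211 at 2 h, with a log2 change of 4.03 ± 0.65, and its lowest 4 h library, replicate 3, was level with the highest at 2 h. GPH1, the phosphorylase that releases glucose units from glycogen, had 839, 1397 and 4862 at 4 h and 144, 186 and 516 at 2 h. Its groups did not overlap and its log2 change was 3.27 ± 0.50 (edgeR, Benjamini-Hochberg adjusted p = 0.00429). The remaining pair, named after their values were seen, were GLG1, a primer of glycogen synthesis, with a log2 change of 1.56, and GAC1, a regulatory subunit that directs a phosphatase to glycogen synthase, with 2.45. Without replicate 2 at 2 h 2 of the 11 genes were called, and without replicate 3 at 2 h 3 were. Each of the other 10 omissions called 5 to 7. GLC3 and GPH1 were called in all 12.

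Genes of trehalose metabolism, which share glucose 1-phosphate and glucose 6-phosphate with glycogen synthesis, had a median log2 change of 0.86, and 3 of 10 rose with 0 lower. TSL1, the large regulatory subunit of trehalose synthase, had 1016, 2503 and 13259.5 scaled counts at 4 h and 294, 309 and 1493 at 2 h (log2 change 3.29 ± 0.71; edgeR, Benjamini-Hochberg adjusted p = 0.0268). Only 3 libraries at 4 h lay above the highest at 2 h, which was replicate 4. TPS2, the phosphatase of the same complex, had 2897, 7529 and 25434 at 4 h and 2357, 3174 and 4007 at 2 h (1.80 ± 0.44). PGM2, the main phosphoglucomutase, which links glucose 6-phosphate to glucose 1-phosphate, had 1259, 2244 and 9254 at 4 h and 382, 789.8 and 996 at 2 h, with no overlap (2.46 ± 0.50). The count of 3 became 9 without replicate 3 at 4 h and 0 without replicate 1 or 4 at 4 h or without replicate 2, 3, 5 or 6 at 2 h.

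The 4 h libraries also differed more among themselves in these genes than the 2 h libraries did. The mean level of the glycogen list, as log2(CPM + 1) with CPM the counts scaled to the library total, was 7.33, 5.81, 5.33, 7.08, 6.21 and 5.62 in replicates 1 to 6 at 4 h and 4.03, 4.48, 4.29, 5.15, 4.77 and 4.59 in replicates 1 to 6 at 2 h. Replicates 1 and 4 at 4 h were the highest and replicate 3 the lowest, and every 4 h library was above every 2 h library. Replicate 1 at 4 h was also the highest 4 h library in 87 of the 120 genes that rose. The SD of log2(scaled count + 1) was larger at 4 h than at 2 h in 80 of these 120 genes (66.7%), against 30.7% of all genes tested. The median SD was 0.413 at 4 h and 0.335 at 2 h for the genes that rose, and 0.195 at 4 h and 0.293 at 2 h for all genes. The SDs at 2 h include replicate 1, the library with the flat length slope, and were not computed without it.

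**Figure D2:**
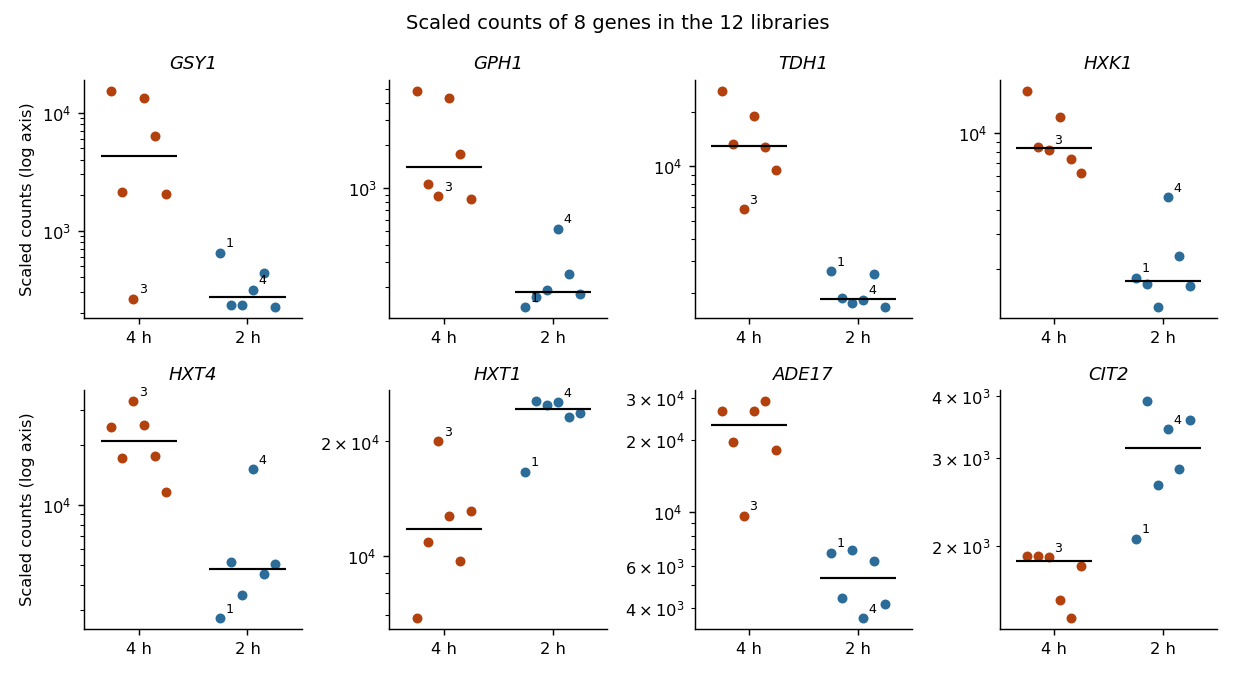
Scaled counts on a log axis of 8 genes in the 6 libraries at 4 h and the 6 at 2 h, with 1 point per library, a bar at the median, and replicate 3 at 4 h and replicates 1 and 4 at 2 h numbered. GPH1, TDH1, HXK1 and ADE17 show no overlap between the times, whereas the library of GSY1 at 263 scaled counts, replicate 3 at 4 h, lies among the 2 h libraries.

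Of the 8 hexose transporter and glucose sensor genes tested, 2 rose and 1 fell. HXT4, a transporter of high affinity made at low glucose, had 11697, 21081 and 33160.2 scaled counts at 4 h, against 2718, 4807 and 15155 at 2 h (log2 change 1.84 ± 0.36). HXT7, also of high affinity, had 158, 296 and 456 at 4 h and 41.7, 68.1 and 205 at 2 h (1.82 ± 0.33). HXT7 is nearly identical to HXT6, and reads shared between them were not counted, so its level leaves out part of its reads. HXT1, the low-affinity transporter made at high glucose, had 6873, 11813 and 20026 at 4 h, against 16657, 24327 and 25504 at 2 h, and fell with a log2 change of -0.95 ± 0.20 (edgeR, Benjamini-Hochberg adjusted p = 0.0268). Replicate 3 at 4 h was the highest 4 h library for HXT4, HXT7 and HXT1 alike, and replicate 4 at 2 h the highest 2 h library for HXT4 and HXT7. The 2 rises became 1 without replicate 4 at 4 h or replicate 2, 3, 5 or 6 at 2 h, and the fall was lost without replicate 2, 4 or 5 at 4 h or replicate 2, 3, 5 or 6 at 2 h, while 2 fell without replicate 3 at 4 h.

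Of the 4 hexokinase and glucokinase genes, which phosphorylate glucose on entry, 3 rose and the fourth, HXK2, the main enzyme on high glucose, had a log2 change of -0.25 ± 0.12 and was not called. HXK1, the hexokinase repressed by glucose, had 6173, 8314 and 16495 scaled counts at 4 h and 1262, 1726 and 4667 at 2 h (log2 change 2.12 ± 0.31; edgeR, Benjamini-Hochberg adjusted p = 0.00359). All 6 libraries at 4 h were above the highest at 2 h, and HXK1 passed the test in each of the 12 omissions. GLK1, the glucokinase, had 3414, 12130.0 and 26988 at 4 h, against 2159, 3494 and 4949.8 at 2 h (2.04 ± 0.44), and its paralog EMI2 1927, 4792 and 10909.7 at 4 h and 1170.5, 1673 and 2540.3 at 2 h (1.71 ± 0.36). In both, replicate 3 at 4 h lay inside the range of the 2 h libraries. The count of 3 became 1 without replicate 1 or 4 at 4 h or replicate 2, 3, 5 or 6 at 2 h, and 2 without replicate 5 at 4 h.

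Among 14 genes of glycolytic enzymes 1 rose and 0 fell. TDH1, the minor of the glyceraldehyde-3-phosphate dehydrogenase genes, had 5819, 13025 and 26120.0 scaled counts at 4 h and 1676, 1866 and 2641 at 2 h, without overlap. Its log2 change was 2.76 ± 0.31 (edgeR, Benjamini-Hochberg adjusted p = 0.000985), while the median over the list was 0.03. TDH1 shares much of its sequence with TDH2 and TDH3, so its counts rest on the reads that map to it alone. MTH1, which holds glucose transporter genes down when glucose is low, was the 1 of 19 glucose repression regulators that rose, with 1622, 2482 and 3296 at 4 h and 648, 893 and 1954 at 2 h (1.26 ± 0.25). SOL4, a lactonase of the pentose phosphate pathway, had 56, 196 and 605 at 4 h and 12.3, 24.4 and 53.5 at 2 h, with no overlap (3.13 ± 0.62). Its 2 h mean of 28.4 scaled counts was below the minimum mean set for testing, so SOL4 was tested only through its 4 h libraries.

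Of 31 targets of the general stress response tested 6 rose and 0 fell, with a list median of 0.75 on the log2 scale. HSP26, a small heat shock protein, had 427, 529 and 1144 scaled counts at 4 h and 76.1, 136 and 284 at 2 h, with no overlap and a log2 change of 2.03 ± 0.34 (edgeR, Benjamini-Hochberg adjusted p = 0.00757). GAD1, glutamate decarboxylase, had 636, 936 and 3762 at 4 h and 232, 303 and 634 at 2 h, with no overlap but only 636 against 634 between the nearest libraries (2.23 ± 0.45). USV1, a transcription factor, had a log2 change of 1.84 ± 0.36 and XBP1, a transcriptional repressor induced by stress, one of 1.82 ± 0.42. CTT1, cytosolic catalase and a common marker of this response, had 217, 405 and 1176 at 4 h, against 252, 305 and 324 at 2 h, and did not pass (log2 change 0.94 ± 0.32; edgeR, Benjamini-Hochberg adjusted p = 0.111). The count of 6 became 18 without replicate 3 at 4 h and 11 without replicate 1 at 2 h. It was 1 without replicate 4 at 4 h or replicate 2, 3 or 6 at 2 h, 2 without replicate 1 at 4 h or replicate 5 at 2 h, and 4 to 8 in the other 4 omissions.

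Of 40 genes of the respiratory chain and ATP synthase 10 rose and 0 fell, with a list median of 0.25, and of 17 genes of the tricarboxylic acid cycle 1 rose, with a median of 0.34. CYC7, the isoform 2 of cytochrome c, had 36.8, 72.3 and 317 scaled counts at 4 h and 15.9, 21.8 and 44.8 at 2 h (log2 change 2.34 ± 0.50), and COX5B, the hypoxic form of a cytochrome c oxidase subunit, 483.4, 818 and 1234 at 4 h and 213, 322 and 599 at 2 h (1.11 ± 0.26). STF2, a stabilising factor of ATP synthase inhibition, rose by 1.75 ± 0.41 and NDI1, the internal NADH dehydrogenase, by 0.96 ± 0.21. The other 6, named after their values were seen, were COX4, QCR9, QCR10, CYT1, RIP1 and INH1, with log2 changes from 0.42 for COX4 to 0.93 for INH1. SDH1, the flavoprotein subunit of succinate dehydrogenase, was the tricarboxylic acid cycle gene, at 1179, 1592 and 2422 at 4 h and 831, 943 and 1294 at 2 h (0.73 ± 0.17). HAP4, the limiting subunit of the activator of respiratory genes, had 5037, 6465 and 13186 at 4 h, against 1297, 2764 and 7294 at 2 h, and did not pass (1.33 ± 0.37; edgeR, Benjamini-Hochberg adjusted p = 0.0673). The respiratory count of 10 was 17 without replicate 1 at 2 h, 14 without replicate 3 at 4 h, 9 without replicate 6 at 4 h and 10 without replicate 4 at 2 h, and 0 to 4 in the other 8 omissions. The tricarboxylic acid cycle had 0 to 5 higher over the omissions, the 5 without replicate 3 at 4 h. The 77 genes of the mitochondrial ribosome had a median of 0.05 with 0 called.

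Purine synthesis, with the one-carbon genes that feed it, held the largest number of calls among the 43 lists, 11 higher and 1 lower of 21. ADE17, which carries out the last steps of IMP synthesis, had 9688, 23022 and 28988 scaled counts at 4 h, against 3626, 5349.5 and 6932 at 2 h, without overlap (log2 change 1.96 ± 0.28; edgeR, Benjamini-Hochberg adjusted p = 0.00265). GCV2, a subunit of the glycine cleavage complex, had 1699, 2949 and 3399.9 at 4 h, against 673, 1086 and 1288 at 2 h (1.41 ± 0.17), and MTD1, a methylenetetrahydrofolate dehydrogenase, 2214, 3563 and 4349.6 at 4 h and 1041, 1287 and 1722 at 2 h (1.32 ± 0.18). Neither overlapped between the times. ADE1, which acts in the middle of the pathway, had 4410.1, 10469 and 13124 at 4 h and 2105, 3754 and 6675 at 2 h (1.28 ± 0.31), where replicate 3 at 4 h lay below replicate 1 at 2 h.

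The remaining purine genes that rose, named after their values were seen, were ADE2, ADE13, GCV1, ADE6, ADE4, ADE3 and ADE12, with log2 changes of 1.22, 1.16, 1.17, 0.74, 0.58, 0.57 and 0.57. IMD2, an IMP dehydrogenase on the guanine branch, fell by 0.81 on the log2 scale. SHM2, the cytosolic serine hydroxymethyltransferase, had 17484, 26309 and 31825 at 4 h and 9069, 11165 and 13219 at 2 h, with no overlap (1.16 ± 0.18; edgeR, Benjamini-Hochberg adjusted p = 0.00478). Of the 78 amino acid biosynthesis genes tested, whose median was 0.02, 3 rose and 0 fell. One was HIS4, a histidine pathway enzyme, at 9899, 17784 and 24235 at 4 h, against 4494, 7243 and 11799 at 2 h (1.18 ± 0.26), which was called in 5 of the 12 omissions. The amino acid list had 10 higher and 7 lower without replicate 3 at 4 h, 5 and 1 without replicate 1 at 2 h, and 1 to 4 higher with 0 lower in the other 10 omissions. Over all genes the fit without replicate 3 at 4 h called 364 higher and 353 lower. The purine count of 11 lay between 6 and 13 over the omissions. It was 6 without replicate 4 at 4 h or replicate 2 or 6 at 2 h, and 7 without replicate 1, 2 or 5 at 4 h or replicate 3 at 2 h.

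**Figure D3:**
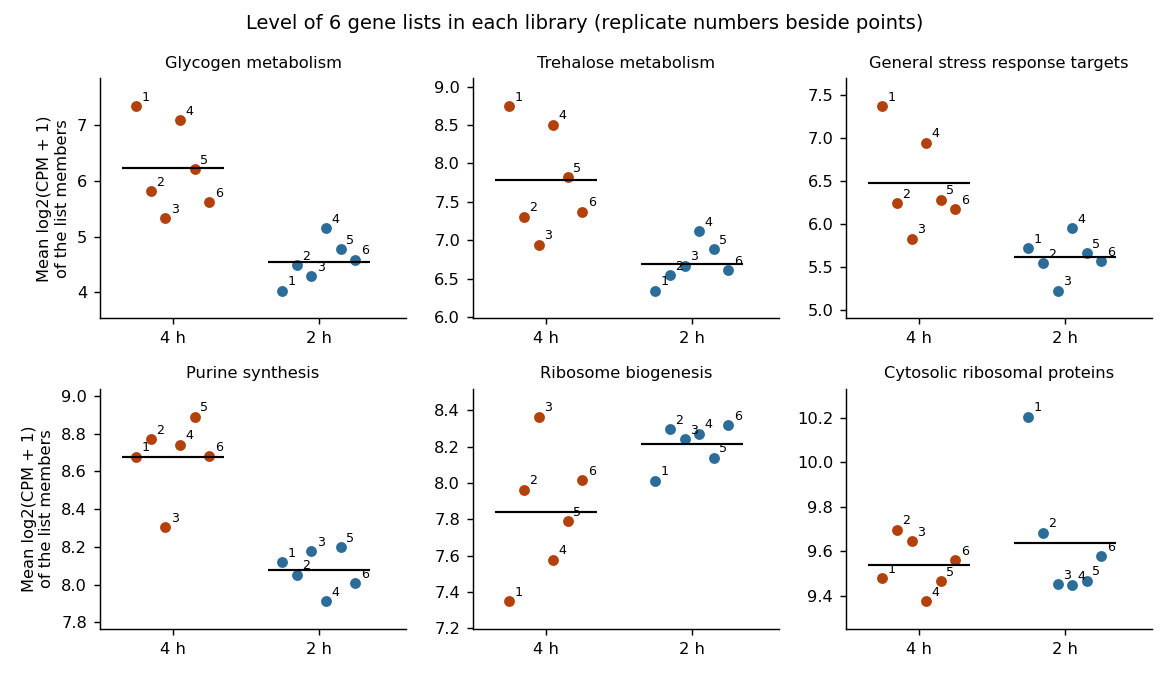
Mean level of 6 gene lists, as log2(CPM + 1), in each library at 4 h and at 2 h, with 1 numbered point per library and a bar at the mean. In the glycogen list every 4 h library lies above every 2 h library, with replicate 3 the lowest at 4 h (5.33) and replicate 1 the highest (7.33), and in the ribosome biogenesis list replicate 1 is the lowest at 4 h (7.35) and replicate 3 the highest (8.36).

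Upstream sequences are shown for the called gene with the largest change, among those with a searched motif, in each of the lists with the largest shares of calls: HXK1, GSY1 and ADE17 for the rises and UPC2, a regulator of sterol genes, for the falls. Each is the 300 bases from 450 to 151 bases before the start codon on the gene's strand, from the RefSeq R64 genome, at chrVI:255200-255499 (minus strand) for HXK1, chrVI:176542-176841 (minus) for GSY1, chrXIII:509431-509730 (minus) for ADE17 and chrIV:889301-889600 (plus) for UPC2. Capitals mark the words searched on both strands: AGGGG, the core of the stress response element (CCCCT on the other strand); GCGGGG, a form of the Mig1 core, with its variant at the first base, CCGGGG, its variant at the second, GTGGGG, and the variant at both, CTGGGG; and TGACTC, the core bound by Bas1 and by Gcn4, which was added after values were seen.
HXK1: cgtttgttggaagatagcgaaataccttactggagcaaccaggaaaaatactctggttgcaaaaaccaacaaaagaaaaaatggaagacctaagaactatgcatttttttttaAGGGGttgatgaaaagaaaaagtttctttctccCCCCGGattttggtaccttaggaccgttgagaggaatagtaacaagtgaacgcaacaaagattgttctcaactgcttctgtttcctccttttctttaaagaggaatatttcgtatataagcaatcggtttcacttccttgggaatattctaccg
GSY1: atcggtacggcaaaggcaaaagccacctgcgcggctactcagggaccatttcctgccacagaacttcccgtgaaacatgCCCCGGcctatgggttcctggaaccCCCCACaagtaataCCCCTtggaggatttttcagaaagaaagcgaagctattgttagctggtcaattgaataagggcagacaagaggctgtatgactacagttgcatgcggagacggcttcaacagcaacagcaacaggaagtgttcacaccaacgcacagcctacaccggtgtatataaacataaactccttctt
ADE17: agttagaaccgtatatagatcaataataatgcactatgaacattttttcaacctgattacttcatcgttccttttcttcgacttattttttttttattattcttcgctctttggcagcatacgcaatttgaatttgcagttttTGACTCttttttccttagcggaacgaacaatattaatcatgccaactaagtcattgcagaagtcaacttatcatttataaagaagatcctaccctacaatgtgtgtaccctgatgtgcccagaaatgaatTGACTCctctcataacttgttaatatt
UPC2: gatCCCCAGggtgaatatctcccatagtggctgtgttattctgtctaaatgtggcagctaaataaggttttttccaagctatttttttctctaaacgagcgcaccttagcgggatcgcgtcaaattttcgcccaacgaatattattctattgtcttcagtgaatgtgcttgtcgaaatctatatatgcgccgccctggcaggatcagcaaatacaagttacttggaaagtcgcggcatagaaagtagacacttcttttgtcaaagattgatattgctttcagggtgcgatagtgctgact

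HXK1 held AGGGG 337 bases and a Mig1-like word 304 bases before the start codon, and GSY1 held the stress element at 332 and Mig1-like words at 371 and 346. ADE17 held TGACTC at 307 and at 177, and UPC2 a Mig1-like word at 447. Over the 5987 windows of the same length upstream of annotated genes, 23.4% held AGGGG, 15.9% a Mig1-like word and 8.35% TGACTC. Of the 119 windows of genes that rose, 50.4% held AGGGG, 32.8% a Mig1-like word and 20.2% TGACTC, and of the 33 of genes that fell, 24.2%, 24.2% and 9.09% did. The stress element word was found in 7 of 11 glycogen, 9 of 10 trehalose and 21 of 31 stress response genes, and TGACTC in 13 of 21 purine genes. CCAAT, the word of the Hap activator, stood in 39.5% of windows of genes that rose, against 45.2% of all and 33 of 40 respiratory chain genes. Stress response, purine and respiratory chain genes are known targets of the factors that bind these words, so their shares are not separate evidence. A match describes letters and not a bound site, and these windows leave out what lies closer to the gene.

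The falls were smaller and spread over several pathways. CIT2, the peroxisomal citrate synthase raised by retrograde signalling from mitochondria, had 1432, 1862 and 1903 scaled counts at 4 h, against 2067, 3136 and 3898 at 2 h, and a log2 change of -0.83 ± 0.13 (edgeR, Benjamini-Hochberg adjusted p = 0.00405). DLD3, a 2-hydroxyglutarate transhydrogenase that is also a retrograde target, had 2068, 2316 and 3010.2 at 4 h and 3358, 4201 and 4485 at 2 h (-0.79 ± 0.11). SOK2, a transcription factor of the protein kinase A pathway, had 949.6, 1163 and 1513 at 4 h and 1759, 1932 and 2095 at 2 h (-0.76 ± 0.11). All 3 kept the times apart and were called in each of the 12 omissions.

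Of the 35 genes tested in a list of cell wall genes 1 rose, DSE1 (log2 change 0.67 ± 0.15), and 1 fell, UTR2 (-0.78 ± 0.18), with a list median of 0.18 and 26 above 0. The list leaves out TIP1, TIR1 and TIR4, which fell, so its counts and median do not cover them. Without replicate 3 at 4 h 7 of the 35 rose and 2 fell, where 364 and 353 of all genes did. Without replicate 1 at 2 h 2 rose and 1 fell, where 234 and 116 of all genes did. Each of the other omissions gave at most 1 either way. TIP1, a cell wall mannoprotein, had 3412, 4457 and 5760.0 scaled counts at 4 h and 6669.7, 8371 and 9949 at 2 h, without overlap (log2 change -0.95 ± 0.16; edgeR, Benjamini-Hochberg adjusted p = 0.00975). Its relative TIR1, made at low oxygen and in the cold, had 640.0, 738 and 1023 at 4 h and 659.9, 1674 and 2045 at 2 h (-1.08 ± 0.23), with replicate 4 the only 2 h library inside the 4 h range. Of 27 ergosterol synthesis genes 3 fell and 0 rose, with a list median of -0.22. ERG25 and ERG11, demethylation enzymes of that pathway, had log2 changes of -0.57 ± 0.11 and -0.50 ± 0.11 and no overlap. UPC2 had 696, 768 and 914 at 4 h and 844, 996 and 1259 at 2 h (-0.45 ± 0.10). INO2, an activator of phospholipid synthesis genes, had 224, 318 and 373 at 4 h, against 435, 466 and 551 at 2 h (-0.67 ± 0.13), and FAA4, an acyl-CoA synthetase, 11580.5, 15695 and 16719.9 at 4 h, against 19220.5, 24936 and 25406 at 2 h (-0.66 ± 0.13). The ergosterol count of 3 was 7 without replicate 3 at 4 h or without replicate 1 at 2 h, 3 without replicate 4 at 2 h and 0 to 2 in the other 9 omissions.

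Of the 16 low-oxygen genes tested 5 passed, with 2 higher (CYC7 and COX5B) and 3 lower (TIR1, TIR4 and UPC2), and a median of -0.41. CYC7 was tested only through its 4 h libraries, as given above. Iron uptake had 2 lower of 28, the siderophore transporter SIT1 (log2 change -0.64 ± 0.13) and the reductase FRE1 (-0.72 ± 0.17). FCY22, a permease-like gene of the purine and cytosine family, had 52.1, 81.2 and 109 scaled counts at 4 h and 90.8, 151 and 183 at 2 h (-0.91 ± 0.19). ADH2, the alcohol dehydrogenase that uses ethanol, is a marker of growth after glucose. It had 37.2, 52.0 and 148 at 4 h, against 83.5, 104 and 224 at 2 h, and did not pass (-0.97 ± 0.35; edgeR, Benjamini-Hochberg adjusted p = 0.131). Calls in these lists ranged over the omissions from 0 to 2 higher and 0 to 6 lower for low oxygen, the 6 without replicate 3 at 4 h, and from 0 to 5 lower for iron uptake, the 5 also without that library. Over all genes the omission of replicate 3 at 4 h gave 353 lower.

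**Figure D4:**
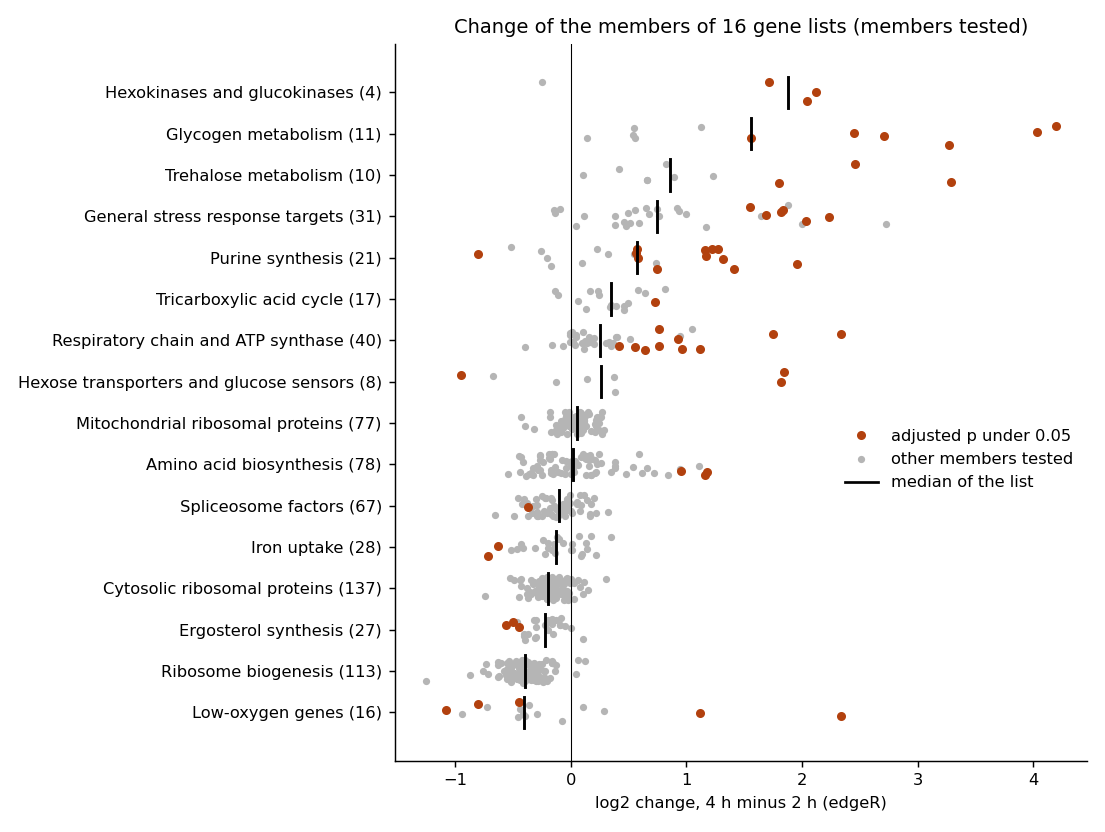
Log2 change from 2 h to 4 h (4 h minus 2 h, edgeR) of each tested member of 16 gene lists, with the number tested in brackets, orange for members with an adjusted p under 0.05 and a bar at each list median. The medians run from 1.88 for hexokinases and 1.56 for glycogen metabolism to -0.40 for ribosome biogenesis and -0.41 for low-oxygen genes, and no member of the ribosome biogenesis list is called.

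Genes for making ribosomes lay below 0 without single calls. Of 113 ribosome biogenesis genes 110 had a log2 change below 0, with a median of -0.40, and 0 were called with 12 libraries. Over all genes tested by edgeR, 1190 had an unadjusted p under 0.05. The list's mean level was 7.35, 7.96, 8.36, 7.58, 7.79 and 8.01 in replicates 1 to 6 at 4 h and 8.01, 8.30, 8.24, 8.27, 8.14 and 8.32 in replicates 1 to 6 at 2 h, as log2(CPM + 1). Replicate 3 was the 4 h library above every 2 h library, and replicates 1 and 4 were the lowest, in reverse of their order in the glycogen list. Without replicate 3 at 4 h, 57 of the 113 were called lower, and with replicate 1 at 2 h left out as well 92 were, whereas the other 11 single omissions called 0 to 2. Over all genes the fits behind the 57 and the 92 called 353 and 707 lower. The double omission was chosen after the data were seen. DESeq2's Wald test with all 12 libraries called 14 lower, against 170 over all genes. Of 15 RNA polymerase I genes 0 were called at a median of -0.31, and 5 were called lower without replicate 3 at 4 h.

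The median of the ribosomal protein genes moved with another library. Of 137 tested 128 had a log2 change below 0 and 0 were called, at a median of -0.19, but without replicate 1 at 2 h, the library with the flat length slope, the median was 0.00. Their mean level at 2 h was 10.2 as log2(CPM + 1) in that library. LSM3, a short gene for a subunit shared by both Lsm rings, had 270.0, 383 and 516 scaled counts at 4 h and 212, 465 and 2063 at 2 h, the 2063 being replicate 1. Its log2 change was -0.91 ± 0.47 and did not pass (edgeR, Benjamini-Hochberg adjusted p = 0.277), and it was -0.04 without that library. Proteasome genes had a median of -0.21 with 0 of 33 called, and -0.12 without it.

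The series asks about the Lsm proteins, which bind RNA in splicing and decay, and about Mediator, which connects activators with RNA polymerase II. Of the 14 Lsm and Pat1 genes tested 0 were called, at a median log2 change of -0.05, and of the 25 Mediator subunits 0 were, at a median of -0.09. Without replicate 3 at 4 h 1 Mediator subunit was called lower. Of 67 spliceosome factors 1 fell, PRP19, a ubiquitin ligase of the spliceosome, with 1422, 1570.2 and 1659 scaled counts at 4 h and 1778, 1931 and 2284 at 2 h, without overlap. Its log2 change was -0.37 ± 0.09 (edgeR, Benjamini-Hochberg adjusted p = 0.0389). Without replicate 3 at 4 h 8 spliceosome factors were called lower, in a fit that called 353 lower over all genes. PRP19 kept its call only in that omission and in those of replicate 1 or 4 at 2 h. The list had 0 calls in the other 9 omissions and with library totals.

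Splicing itself was read from counts over exons set against counts over whole genes, scaled for length, so that a value near 1 means few intron reads. For the 75 genes with an intron that lie in both the Lsm3 and the Mediator occupancy lists of the study, the mean splice ratio was 0.950 ± 0.0234 at 4 h and 0.950 ± 0.0267 at 2 h (SD, n = 6 each), a difference of 0.000256 (2-sided exact permutation test, p = 0.974). For the 107 genes in neither list it was 0.895 ± 0.0290 at 4 h and 0.894 ± 0.0296 at 2 h, a difference of 0.000486 (2-sided exact permutation test, p = 0.983). These classes were rebuilt from the lists and are not the study's own sets, which were smaller. The first holds snR17b, which the paper describes as occupied by Lsm3 but not Mediator. The second holds YBR090C and YHL050C, whose ratio was 0 at both times. In both classes the lowest libraries were replicate 3 at 4 h (0.905 and 0.838) and replicate 4 at 2 h (0.905 and 0.861). Among 213 single genes 0 passed an exact permutation test after Benjamini-Hochberg adjustment, and 4 had an unadjusted p under 0.05, 1 higher and 3 lower, with 0.00216 the smallest p that 6 against 6 libraries allow. A gene at that p, alone or among a few, could not pass after adjustment over 213 genes. The 0 therefore says nothing about changes in a few genes.

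No difference in the level of these 2 classes passed the test either. The genes in both lists averaged 10843 ± 890.2 scaled counts at 4 h and 11825 ± 2821 at 2 h (SD, n = 6 each), a difference of -982 (2-sided exact permutation test, p = 0.604). Replicate 1 at 2 h, with 17411, was above the other 11 libraries, and without it the difference was 135 (exact permutation test, p = 0.799). The genes in neither list averaged 1383 ± 109.8 at 4 h and 1415 ± 102 at 2 h, a difference of -32.1 (2-sided exact permutation test, p = 0.584). In the fit over all genes 0 of the 75 and 2 of the 107 were called, both higher, where 2.21% of all genes tested were called higher and 0.608% lower.

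The step was set beside its neighbours in 1 fit of all 42 libraries, in which 5416 genes were tested. It called 4 rises and 3 falls from 0 h to 2 h (0.129% of the genes), 193 rises and 98 falls from 2 h to 4 h (5.37%), and 175 rises and 59 falls from 4 h to 6 h (4.32%). These steps share the 2 h or the 4 h libraries, so a library that stands apart enters both of them with opposite sign. The 0 h libraries also differ in kind, since most of them carry a treatment name other than 30C in the headers of their count files. The difference between steps was tested for each gene. It passed for 0 genes against the step from 4 h to 6 h and for 0 against the step from 0 h to 2 h (edgeR, Benjamini-Hochberg; 462 and 376 genes at an unadjusted p under 0.05). Without replicate 3 at 4 h the same tests found 32 genes against the later step, with 15 larger and 17 smaller at 2 h to 4 h, and 10 against the earlier step, with 5 each way.

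Step medians are given side by side, in the order 0 h to 2 h, 2 h to 4 h and 4 h to 6 h. Glycogen genes had median log2 changes of 0.14, 1.56 and 0.39, hexokinases -0.23, 1.89 and 0.61, and purine genes -0.14, 0.57 and 0.18. Trehalose genes had -0.05, 0.86 and -0.02, and stress response targets 0.05, 0.75 and 0.53. Ribosome biogenesis genes had -0.02, -0.40 and -0.05. Respiratory genes had -0.09, 0.21 and 0.57, with 0, 10 and 18 members called higher, and genes of the mitochondrial ribosome -0.01, 0.06 and 0.41, with 0, 1 and 20 called higher.

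Single genes showed the same range of courses. GSY1 had log2 changes of -1.23, 4.21 and -0.29 over the 3 steps and GSY2 of 0.04, 2.72 and 0.02. The high-affinity transporter HXT7 had 0.67, 1.83 and 3.15, and HXT4 1.36, 1.85 and 1.45. HXT1 had 0.06, -0.95 and -2.42, with 980.4 to 3420 scaled counts at 6 h. Among these genes the difference of the step from 2 h to 4 h against that from 4 h to 6 h had the adjusted p nearest the threshold for GSY2 (edgeR, Benjamini-Hochberg adjusted p = 0.296), and none passed.

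**Figure D5:**
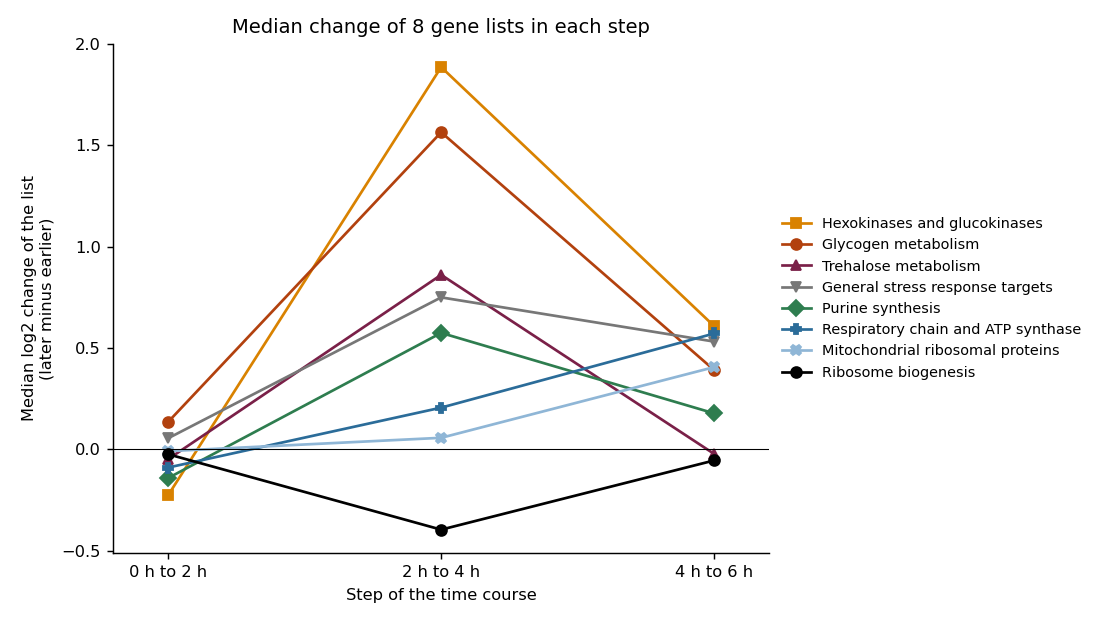
Median log2 change (later minus earlier) of 8 gene lists over the steps from 0 h to 2 h, 2 h to 4 h and 4 h to 6 h, from 1 fit of all 42 libraries; lines only join the points of a list. The glycogen list reads 0.14, 1.56 and 0.39, and the respiratory list -0.09, 0.21 and 0.57.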

How the data were processed

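RNA was polyA selected and sequenced as stranded libraries. Reads were aligned with STAR, and the authors deposited whole, unnormalized counts per gene and per exon set from featureCounts 2.0.3 and the R64-1-1 annotation. Multimapping reads were not counted. The deposited counts carry no batch term, and the authors' batch adjustment was not repeated here.

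Genes with a mean of at least 75 counts scaled to the average library size were tested with edgeR 4.0.16 (quasi-likelihood test, TMM scaling, no replicate block) under R 4.3.3 and tested on simulated data first. The mean was taken over both times, so a gene low at 2 h could be tested through its 4 h libraries alone. P-values were adjusted by Benjamini and Hochberg over all genes tested, with a threshold of 0.05. DESeq2 1.42.0, other scalings and filters, a length slope term and leaving out libraries were alternatives. Class means were compared by exact permutation over 924 splits (Python 3.11.15).

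Gene lists and the comparison were chosen with earlier results of these data known. Named genes are the 12 largest rises and falls without overlap among called genes, plus up to 4 called members of each list (up to 2 uncalled ones where none was called), and exceptions are stated where they occur. Counts of single genes carry no interval here, since library spread exceeds counting error (chi-square at least 8.48 times its degrees of freedom in each of 30 pairs of libraries of one time). Occupancy lists of the study defined the intron-gene classes. Gene positions and upstream windows are from RefSeq R64, in which 6038 of 6047 matched genes have the same start and end. Samples were grouped by GEO's labels, and numbers shared between times were not taken as pairs.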

Additional observations from a re-analysis of the deposited data

Results flagged for a closer look

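In 18 of 128 groups of 6 libraries (14.1%) the highest or lowest library lay far from the rest by Dixon's ratio at its critical value. The groups share the same 12 libraries and include named genes chosen from these data. A chance rate for separate groups therefore does not apply to them. All 18 fell to 3 libraries.

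Replicate 4 at 2 h was far from the other 2 h libraries in 9 genes. It was high in GPH1 (516 scaled counts, others 144 to 248), GAD1 (634, others 232 to 344), HXK1 (4667, others 1262 to 2316), XBP1 (298, others 71.2 to 119), HXT4 (15155, others 2718 to 5211), HXT7 (205, others 41.7 to 93.2), TSL1 (1493, others 294 to 501) and SDH1 (1294, others 831 to 958). It was low in TIR1 (659.9, others 1533 to 2045). All but TIR1 are genes that were higher at 4 h, and TIR1 was lower at 4 h.

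Replicate 1 at 2 h was high in SRD1, a gene whose product acts on ribosomal RNA processing (884, others 537 to 650.2), and low in HXT1 (16657, others 23224 to 25504) and FCY22 (90.8, others 149.7 to 183). Its mean level of the intron genes in both occupancy lists was 17411 scaled counts (others 10110.4 to 11929) and its length slope 0.0258 (others 0.440 to 0.577).

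Replicate 3 at 4 h was high in the cell wall genes UTR2 (8212, others 3489 to 5129.7) and TIR4 (553, others 248 to 305), both lower at 4 h. For the intron genes in neither list it had the lowest splice ratio, 0.838 (others 0.895 to 0.916), and the highest level, 1592 scaled counts (others 1303 to 1410.0).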

How the results depend on the processing

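With DESeq2 size factors 113 genes were higher and 35 lower, and with exon counts 120 and 34, close to the 120 and 33 reported. Library totals called 25 lower, and no filter 33. Counts moved with a length slope term (253 and 89), with all 42 libraries in 1 fit (192 and 97) and with DESeq2's Wald test (293 and 170). Leaving out 1 library gave 22 to 364 higher and 4 to 353 lower, and leaving out both replicate 3 at 4 h and replicate 1 at 2 h 702 and 707. The cause was not tested.

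The labels number replicates 1 to 6 at both times, and the submitters' file names carry another numbering. With 3 of 6 title pairs and 5 of 6 file-name pairs correlating over 0.1 (-0.17 to 0.30 and 0.09 to 0.46), and 2 and 3 of 6 libraries at 4 h correlating best with their own number, pairing was not established. The highest of these, 0.46, was that of replicate 3 at 4 h and replicate 4 at 2 h, which share file-name number 1. The 2 numberings give different pairs only for replicates 3 and 4 at 4 h. Their correlations were -0.13 and -0.17 by title and 0.46 and 0.23 by file name. A replicate block by title number called 84 of the 120 and 21 of the 33, and 33 lower in all. The block by file-name number called 71 of the 120 and 26 of the 33, and 70 lower in all. Among the named genes the title block ended 12 calls, TPS2, PGM2, ADE1, PRP19, UPC2, TIR1 and TIR4 among them, and the file-name block 18, GSY2, PGM2, TSL1, TPS2, GLK1, EMI2, GAD1, NDI1, SDH1, PRP19 and TIR1 among them. The file-name replicate block with the length slope term called 331 and 257. Leaving out both libraries together was chosen after seeing the data.

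The difference from the step from 4 h to 6 h was called for 0 to 15 genes as larger and 0 to 17 as smaller over the single omissions, and that from the step from 0 h to 2 h for 0 to 5 each way. With only the 6 libraries at 0 h whose headers carry the name 30C, that last test called 1 gene as larger and 0 as smaller. Differences in splice ratio stayed near 0 and changed sign: -0.000094 without length scaling and -0.00013 as a median for genes in both lists (-0.0087 to 0.00914 over single omissions), and -0.000291 without length scaling for genes in neither list (-0.00626 to 0.0119). The level difference ranged from -1325 to 135 for genes in both lists and from -73.9 to 2.56 for genes in neither, which was 0.0647 as a mean of log2(scaled count + 1). None of these passed an exact permutation test, and the cause was not tested.

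Of the 59 named genes called with 12 libraries, 14 were called in every omission, and the only named genes to change sign were the uncalled LSM5 and LSM3. LSM5 had log2 changes of 0.0635 with the slope term, 0.0646 with block and slope, 0.0754 without both libraries and -0.740 to 0.0523 over single omissions, and LSM3 of 0.0322 with block and slope. Genes under a mean of 75 scaled counts were not tested, so nothing is said of them.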
